A study of Drosophila melanogaster with 16 samples.

Results

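The cytoplasmic RNA of OSS cells, a cultured line of ovarian follicle cells of Drosophila melanogaster, was compared after siRNA against both piwi and the Paf1 gene (the double knockdown, 2 libraries) and after siRNA against piwi alone (siPIWI, 2 libraries). These 4 libraries were chosen by their labels from the 16 of the study. The study also holds cytoplasmic libraries with siRNA against the Paf1 gene alone (siPAF1) and with siRNA against GFP, the control (siGFP), and the same 4 treatments in a pellet that the labels call NUN without spelling it out, each with 2 libraries. For each treatment 500 pmol of siRNA was electroporated into a 10 cm plate, and the cells were harvested after 6 days. All groups are the same cell line, and no group is untreated. In each group the 2 libraries carry the numbers OSS_146 and OSS_147 in their titles. The labels do not say whether the numbers mark separate cultures, so every p-value below measures the spread between these libraries, which may be technical.

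Piwi is the Argonaute protein that carries piRNAs, small RNAs that guide silencing, into the nucleus of follicle cells, where it represses the transcription of transposons and of some genes near them. The Paf1 complex travels with RNA polymerase II, helps it to elongate, and takes part in histone modification and in the processing of RNA ends. In fission yeast the complex opposes small-RNA silencing of genes, and the comparison of the double knockdown with siPIWI asks what loss of Paf1 mRNA adds once piwi mRNA is already reduced.

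The cytoplasmic libraries held 663876 to 1759084 unique own-strand counts on coding sequences (CDS), and the 20 most abundant genes took 32.1% to 45.8% of them. Levels below are CPM, the CDS counts scaled to each library's size after TMM adjustment. Changes are log2 differences of the double knockdown minus siPIWI with their SE from edgeR, and p is adjusted by Benjamini-Hochberg over all genes tested unless it is called unadjusted. Of 13892 genes with a CDS, 9401 had a count in the 4 libraries and 5714 passed the count filter. The follicle cell markers tj, ptc, zfh1, bab2, Fas3 and eya had counts in each of the 4 libraries. Their summed levels were 215 and 145 CPM in the double knockdown and 429 and 110 CPM with siPIWI, and 2 of them, tj and ptc, reached a mean of 20 CPM. Of 6 germline markers nos, osk and otu were at 0 in the 4 libraries, and all 5 fat body markers were at 0. The 6 germline markers summed to 2.51 and 1.21 CPM in the double knockdown and 1.95 and 4.4 CPM with siPIWI. The longer list of 21 germline genes, with krimp and spn-E its most abundant tested members, was higher. It summed to 302 and 221 CPM in the double knockdown and 459 and 321 CPM with siPIWI. The 6 blood cell markers, none at 0 in all 4 libraries, summed to 47.6 and 33.75 CPM in the double knockdown and 47.4 and 33.75 CPM with siPIWI. The longer list of 19 blood cell markers summed to 649 and 300 CPM in the double knockdown and 1133 and 276 CPM with siPIWI. Most of this was LanA and LanB1. The 6 neuron markers summed to 20.9 and 4.82 CPM in the double knockdown and 39.0 and 11.7 CPM with siPIWI. The 6 muscle markers summed to 31.7 and 25.3 CPM in the double knockdown and 138 and 42.6 CPM with siPIWI. Nearly all of this was sls, which had 28.4 and 21.7 CPM in the double knockdown and 137 and 38.2 CPM with siPIWI. The longer list of 24 muscle and sarcomere genes stood the other way, at 678 and 1195 CPM in the double knockdown and 593 and 814 CPM with siPIWI, most of it Mlc2. The part of muscle markers in the results was not tested. In RNA of whole cultures, fewer cells of a type and less RNA per cell cannot be told apart.

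The share of counts on pellet-enriched genes differed between the cytoplasmic libraries. Genes whose level in NUN exceeded that in the cytoplasm by a log2 of more than 3 with siGFP (1631 genes) took 2.35% of the counts in double-knockdown library OSS_146 and 0.738% in double-knockdown library OSS_147. They took 3.72% in siPIWI library OSS_146 and 0.867% in siPIWI library OSS_147. With siPAF1 the share was 1.03% and 1.02%, and with siGFP it was 0.507% and 0.792%. Library OSS_146 thus had the higher share in both compared groups, and that of siPIWI was the highest of the 8 cytoplasmic libraries. Levels are therefore given for each library, and list medians for each library number where they are described.

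One mRNA fell past the threshold, and it was that of the Paf1 gene itself. This gene is listed as atms (chromosome 3R, 601323 to 603213) and encodes the subunit that gives the Paf1 complex its name. It stood at 11.7 and 9.64 CPM in the double-knockdown libraries OSS_146 and OSS_147, against 105 and 93.9 CPM in the siPIWI libraries OSS_146 and OSS_147. The means were 10.7 ± 1.45 CPM in the double knockdown and 99.2 ± 7.55 CPM with siPIWI (SD, n = 2 each), and the groups were far apart in both numbers. The change was -3.18 ± 0.46, a 9.05-fold lower level (edgeR, adjusted p = 0.00377). It was the 1 gene of 5714 that passed, a share of 0.0175%, and 0 genes rose. At an unadjusted p under 0.05 the same edgeR test held 149 genes (2.61%), 53 with a higher (0.928%) and 96 with a lower estimate (1.68%). DESeq2 called atms alone as well. The call was lost without double-knockdown library OSS_146 (-3.28, edgeR adjusted p = 0.243), without double-knockdown library OSS_147 (-3.07, edgeR adjusted p = 0.183) and in a fit of the 4 libraries alone (-3.21, edgeR adjusted p = 0.0737). With 1 library left in a group, that library is assumed to vary like the other groups.

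The counts behind these levels were low. The CDS of atms had 28 and 8 counts in the double knockdown, against 161 and 64 counts with siPIWI. Its 3' window had 8 and 9 counts in the double knockdown and 24 and 12 counts with siPIWI, in windows whose length differs between libraries. Cells with siRNA against the Paf1 gene but not piwi showed the same order, with 10.7 and 5.96 CPM with siPAF1 and 167 and 172 CPM with siGFP, a difference of -4.28 ± 0.48. The change in the double knockdown less that difference was 1.10 ± 0.65 (edgeR, adjusted p = 0.969), so a difference between the backgrounds was not detectable. In the pellet atms stood at 34.1 and 19.0 CPM in the double knockdown and at 72.1 and 75.5 CPM with siPIWI, a difference of -1.48 ± 0.32. The cytoplasmic less the pellet change was -1.67 ± 0.54 on the log2 scale (edgeR unadjusted p = 0.00491, adjusted p = 1).

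The mRNA of piwi (chromosome 2L, 10982205 to 10987416) was at a similar level in both compared groups. It had 102 and 36.2 CPM in the double knockdown and 86.4 and 42.6 CPM with siPIWI, and the groups overlapped. The change was 0.10 ± 0.49 (edgeR, adjusted p = 0.999). With siPAF1 it had 251 and 345 CPM and with siGFP 288 and 308 CPM, above all 4 libraries with siRNA against piwi. The deposited windows past the CDS gave a steeper contrast. The 3' window of piwi held 119 and 55 counts in the double knockdown and 70 and 57 counts with siPIWI, while it held 1132 and 1018 counts with siPAF1 and 1047 and 968 counts with siGFP. The CDS held 243 and 30 counts in the double knockdown and 133 and 29 counts with siPIWI, against 397 and 347 counts with siPAF1 and 211 and 237 counts with siGFP. The 2 libraries numbered OSS_146 with siRNA against piwi thus kept more CDS counts than those numbered OSS_147. The authors' 3' window of piwi differed in length between libraries, from 956 to 1206 bases.

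**Figure D1:**
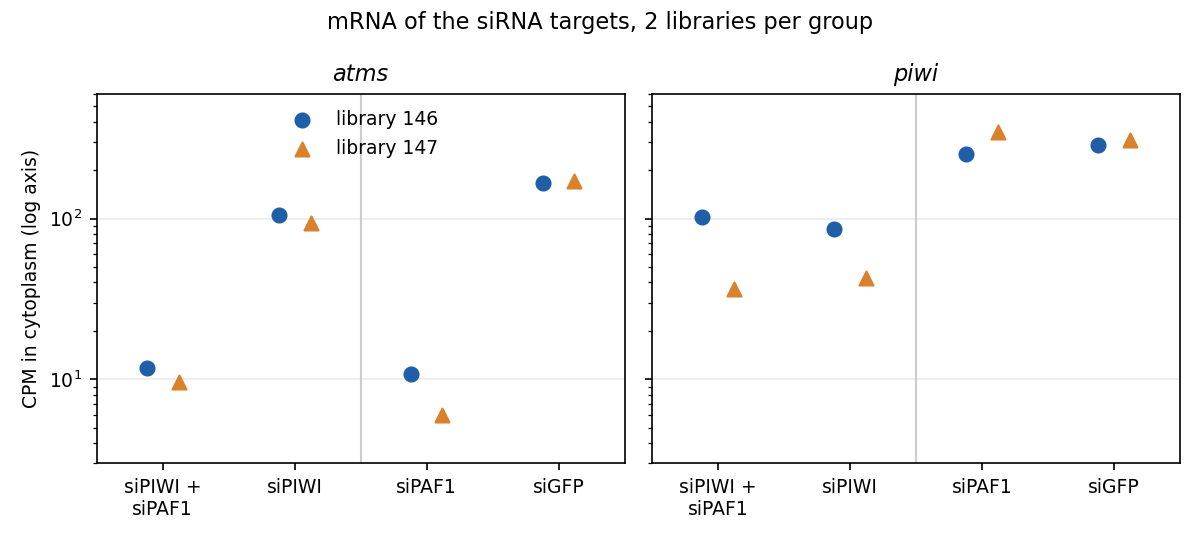
CPM on a log axis of atms (left) and piwi (right) in each cytoplasmic library, with circles for library OSS_146 and triangles for library OSS_147. The libraries with siRNA against the Paf1 gene sit between 5.96 and 11.7 CPM for atms, and the 4 with siRNA against piwi sit between 36.2 and 102 CPM for piwi.

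The other 4 tested members of the Paf1 complex list did not pass the test. Atu, the fly Leo1 subunit, had 61 and 40.98 CPM in the double knockdown and 35.1 and 35.2 CPM with siPIWI, a change of 0.56 ± 0.41 (edgeR, adjusted p = 0.999). Its groups did not overlap, as was so for 22.5% of all genes tested in either direction. CG2469, the fly Ctr9, had 109 and 67.5 CPM in the double knockdown and 121 and 51.4 CPM with siPIWI. The Cdc73 homolog hyx had 26.3 and 21.7 CPM in the double knockdown and 33.1 and 13.2 CPM with siPIWI, and Rtf1 had 33.8 and 7.23 CPM in the double knockdown and 29.2 and 10.3 CPM with siPIWI. For these last 3 genes the groups overlapped, and the estimates lay between -0.00 and 0.08.

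The size of change that these libraries could show was limited. The median SE over the 5714 genes was 0.51, and for 551 genes (9.64%) the interval of 2 SE on each side lay inside a log2 change of 1. Estimates for 5429 genes (95.01%) lay within a log2 of 1 of zero, with 75 beyond it on the higher side and 210 on the lower side. The changes seen in libraries OSS_146 and in libraries OSS_147 had little in common, with Pearson's r = 0.08 and Spearman's rho = 0.07 across the 5714 genes. These are genes of the same libraries, not independent replicates. In the plot of change against level, atms has the lowest estimate among genes over 10 CPM, and CG18094 follows it at -2.37.

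**Figure D2:**
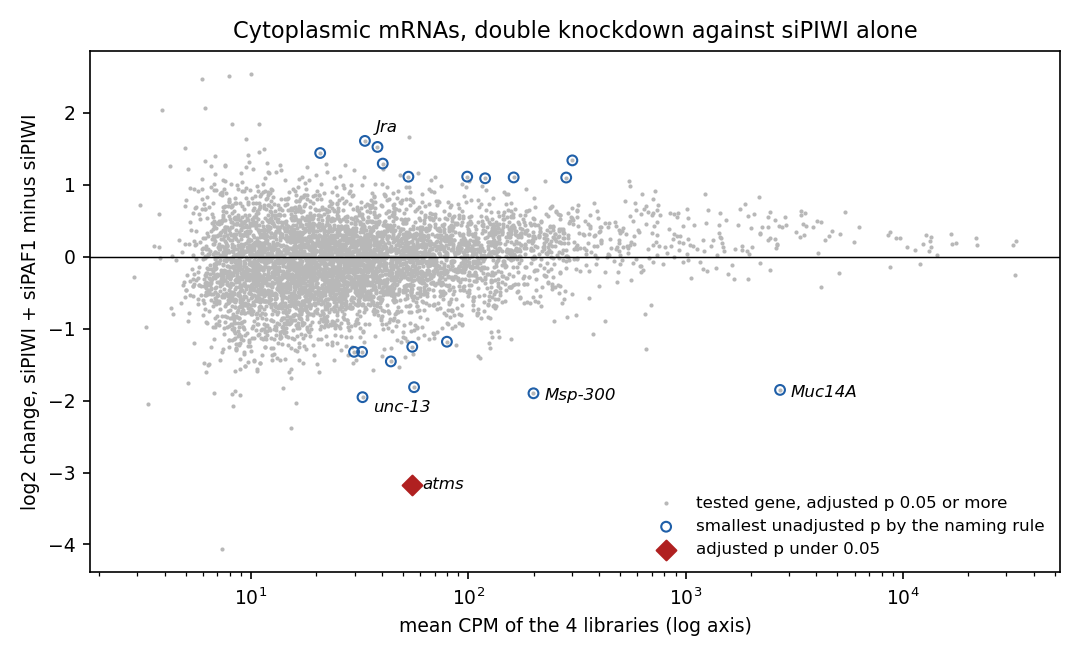
The log2 change of the double knockdown minus siPIWI for each of 5714 tested genes against the mean CPM of the 4 libraries on a log axis. The diamond is atms at -3.18, the 1 gene past the threshold, and open circles are the 19 genes named for the smallest unadjusted p.

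The genes with the smallest unadjusted p among those with at least 20 mean counts and no overlap between groups are given as values, since none of them passed the test (edgeR adjusted p = 0.999 for each). On the higher side there were 10 such genes. Jra, the fly Jun and a partner in the AP-1 transcription factor, had 36.3 and 65.1 CPM in the double knockdown against 16.2 and 16.1 CPM with siPIWI, a difference of 1.61 ± 0.50. Both double-knockdown libraries were well above both siPIWI libraries. In the other background Jra had 38.5 and 74.6 CPM with siPAF1 and 17.8 and 32.5 CPM with siGFP (1.149 ± 0.49). Snx3, listed as CG6359, is a sorting nexin of endosomes. It had 27.6 and 33.8 CPM in the double knockdown and 11.7 and 10.3 CPM with siPIWI (1.44 ± 0.54), and 16.4 and 35.8 CPM with siPAF1 and 9.57 and 15.6 CPM with siGFP. ALiX, which works with the ESCRT machinery of membrane remodelling, had 272 and 499 CPM in the double knockdown and 155 and 204 CPM with siPIWI (1.10 ± 0.45).

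Secreted and metabolic proteins were also among them. Idgf3, an imaginal disc growth factor, had 121 and 148 CPM in the double knockdown and 45.5 and 80.7 CPM with siPIWI (1.11 ± 0.45). Its levels were 169 and 212 CPM with siPAF1 and 57.4 and 108 CPM with siGFP, so the higher level with siRNA against the Paf1 gene was seen in both backgrounds. Inos, the synthase that makes inositol phosphate from glucose 6-phosphate, had 210 and 233 CPM in the double knockdown and 120 and 85.1 CPM with siPIWI (1.10 ± 0.43). For Inos the other background gave no such contrast, with 407 and 242 CPM with siPAF1 and 339 and 322 CPM with siGFP. The cargo receptor gene cni had 98.6 and 228 CPM in the double knockdown and 72.8 and 79.2 CPM with siPIWI (1.09 ± 0.45), but 124 and 124 CPM with siPAF1 and 254 and 172 CPM with siGFP.

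A pair of neighbours on chromosome X was included. CG9689 (9776016 to 9776992) and CG9691 (9778475 to 9779079) lie 1482 bases apart. CG9691 had 318 and 545 CPM in the double knockdown and 111 and 232 CPM with siPIWI (1.34 ± 0.47), and CG9689 had 30.5 and 82.0 CPM in the double knockdown and 11.0 and 29.3 CPM with siPIWI (1.53 ± 0.57). In both genes library OSS_147 was above library OSS_146 within each of the compared groups. CG8229 had 48.9 and 65.1 CPM in the double knockdown and 16.9 and 30.8 CPM with siPIWI (1.29 ± 0.46), and CG1637 had 88.1 and 56.7 CPM in the double knockdown and 35.1 and 32.3 CPM with siPIWI (1.11 ± 0.43). CG1637 had 51.2 and 79.5 CPM with siPAF1 and 10.9 and 14.3 CPM with siGFP, the widest gap of the 10 in that background (2.35 ± 0.49).

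On the lower side there were 9 such genes beside atms. Their median coding length was 9561 bases, with 276 bases for SLIRP2 at the low end, against 939 bases for the 10 on the higher side and 1394 bases for all genes tested. The gene unc-13, which primes synaptic vesicles in neurons, had 13.8 and 13.3 CPM in the double knockdown and 68.2 and 35.2 CPM with siPIWI (-1.95 ± 0.47). In the other background unc-13 had 11.4 and 12.9 CPM with siPAF1 and 31.4 and 33.8 CPM with siGFP (-1.43 ± 0.49), and the groups did not overlap there either. Msp-300, the giant nesprin that links nuclei to the cytoskeleton, had 94.4 and 74.7 CPM in the double knockdown and 499 and 131 CPM with siPIWI (-1.90 ± 0.55). The titin-like gene sls differed by -1.81 ± 0.58. In both, siPIWI library OSS_146 stood far above the other 3 libraries. Both genes were pellet-enriched, with a log2 of NUN over cytoplasm with siGFP of 4.48 for Msp-300 and 4.32 for sls. In the pellet the double knockdown minus siPIWI was -0.07 ± 0.20 for Msp-300 and -0.14 ± 0.18 for sls. The part of pellet RNA in their cytoplasmic change was not tested.

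Muc14A, a mucin gene, had 404 and 1965 CPM in the double knockdown and 5909 and 2615 CPM with siPIWI (-1.85 ± 0.62). Its spread within the double knockdown was wider than the gap between the groups in libraries OSS_147, and in the other background it had 2851 and 1408 CPM with siPAF1 and 1640 and 1637 CPM with siGFP. Su(var)2-HP2, a partner of heterochromatin protein HP1, had 26.7 and 20.5 CPM in the double knockdown and 92.2 and 36.7 CPM with siPIWI (-1.46 ± 0.47). The gene dtr had 19.2 and 18.1 CPM in the double knockdown and 55.9 and 36.7 CPM with siPIWI (-1.32 ± 0.44). The same gene had 15.2 and 14.9 CPM with siPAF1 and 60.1 and 74.1 CPM with siGFP (-2.15 ± 0.45), a wider gap without siRNA against piwi. SLIRP2, listed as CG8021, had 23.4 and 43.4 CPM in the double knockdown and 77.9 and 76.3 CPM with siPIWI (-1.25 ± 0.44).

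A pair of genes of the piRNA pathway belonged to the lower side. The Tudor protein gene krimp, known from the germline, had 46.8 and 50.6 CPM in the double knockdown and 95.5 and 126 CPM with siPIWI (-1.18 ± 0.41, edgeR adjusted p = 0.999). In the other background krimp had 34.8 and 45.7 CPM with siPAF1 and 72.4 and 75.4 CPM with siGFP (-0.88 ± 0.42), so each library with siRNA against the Paf1 gene was below each one without it. BoYb, listed as CG11133, is a relative of the follicle cell protein Yb. It had 20.5 and 12.1 CPM in the double knockdown and 32.5 and 54.3 CPM with siPIWI (-1.32 ± 0.47), and 21.5 and 21.9 CPM with siPAF1 and 27.3 and 33.8 CPM with siGFP (-0.50 ± 0.48).

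The contrast of siPAF1 with siGFP was not used to choose these 19 genes, but its libraries were in the fit that gave the p-values and so shared the count filter, the scaling and the estimate of spread. Of the 10 on the higher side 8 had a positive difference of siPAF1 minus siGFP, with a median of 0.97, and in 7 the groups did not overlap. Over all genes tested 52.0% had a positive difference and 26.4% had no overlap on that side. Of the 9 on the lower side 8 had a negative difference, with a median of -1.01, and in 8 the siPAF1 libraries lay below the siGFP libraries, against 23.01% of all genes tested. Muc14A was the exception on the lower side, and Inos and cni were the exceptions on the higher side. In the pellet 9 of the 9 genes measured on the higher side and 7 of the 8 on the lower side had the sign seen in the cytoplasm, with smaller medians of 0.50 and -0.22. Over all genes tested that were measured in the pellet, 50.8% had a positive and 49.2% a negative difference there. Neither set of pellet or siPAF1 values was tested for the genes as a list.

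**Figure D3:**
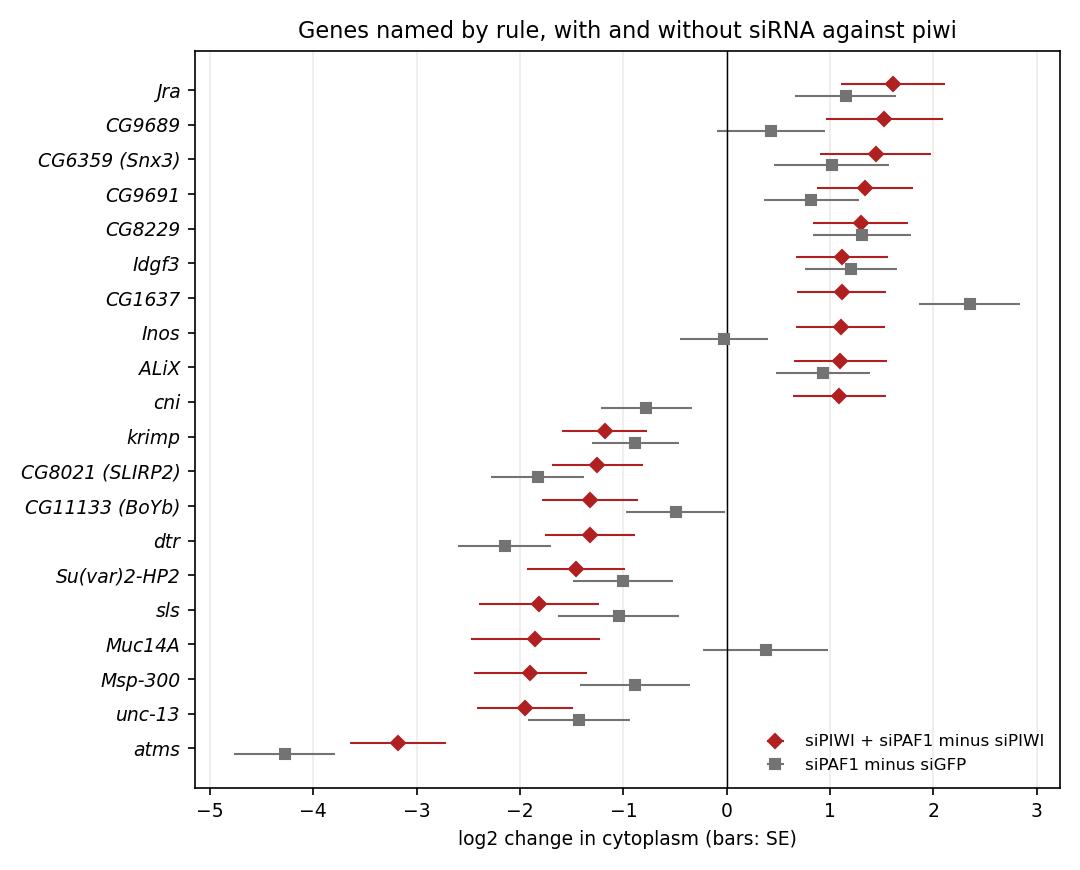
The log2 change ± SE of atms and of the 19 genes named for the smallest unadjusted p. Diamonds are the double knockdown minus siPIWI and squares are siPAF1 minus siGFP, which share no library; the squares lie on the same side of zero as the diamonds for 16 of the 19 genes.

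Across all 5714 genes the relation between the backgrounds was weak. The change of the double knockdown minus siPIWI and the difference of siPAF1 minus siGFP had Pearson's r = 0.24 and Spearman's rho = 0.19, with no library in common but with one normalisation and one fit. With the change taken from libraries OSS_146 alone, r was 0.30 against siPAF1 minus siGFP of libraries OSS_146 and 0.33 against that of libraries OSS_147. With the change taken from libraries OSS_147 alone, r was -0.02 and 0.01. The relation across genes was therefore carried by the change seen in libraries OSS_146. These values describe these libraries and have no test, since genes are not independent replicates.

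The question whether siRNA against the Paf1 gene acts otherwise when piwi mRNA is reduced was tested gene by gene as the change of the double knockdown minus siPIWI less the difference of siPAF1 minus siGFP. Of 5714 genes 0 passed in edgeR and 0 in DESeq2, with 156 genes (2.73%) at an unadjusted edgeR p under 0.05, 76 higher (1.33%) and 80 lower (1.4%). Among the named genes the widest such differences were those of Muc14A (-2.23 ± 0.86, edgeR adjusted p = 0.969) and cni (1.87 ± 0.63, edgeR adjusted p = 0.969). The change in the cytoplasm was set against the change in the pellet in the same way. Of 7982 genes 0 passed in edgeR and 0 in DESeq2, with 141 genes (1.77%) at an unadjusted edgeR p under 0.05, 48 higher (0.601%) and 93 lower (1.17%). Neither result shows that the changes were equal, given SEs of this size.

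Gene lists were described by how many of their tested members had a positive estimate and by their medians, beside 46.2% positive and a median of -0.05 over all genes tested. Among 25 lists, which held 498 tested genes, the Paf1 complex list held the 1 gene called. In the list of heat shock proteins and chaperones 19 of 22 tested members had a positive estimate, with a median of 0.38, and the medians were 0.40 in libraries OSS_146 and 0.30 in libraries OSS_147. Its most abundant members were Hsc70-4, with 5615 and 8789 CPM in the double knockdown and 5543 and 5222 CPM with siPIWI (0.42 ± 0.48), and the mitochondrial chaperone Hsp60 (0.42 ± 0.50), whose groups overlapped. For siPAF1 minus siGFP these 2 genes had -0.12 and -0.62. Hsp68, a stress-induced Hsp70 protein, had 31.8 and 25.3 CPM in the double knockdown and 19.5 and 10.3 CPM with siPIWI (0.88 ± 0.48). Hsp22, a small heat shock protein of mitochondria, had 43.0 and 62.7 CPM in the double knockdown and 21.4 and 41.1 CPM with siPIWI (0.79 ± 0.45). Both were also higher with siPAF1 than with siGFP, where the median of the list was 0.61. In 7 members the double-knockdown libraries lay above the siPIWI libraries, a property of 12% of all genes tested, and 0 members passed at an adjusted or an unadjusted edgeR p under 0.05. The 3 exceptions were the endoplasmic reticulum chaperone Hsc70-3 (-0.60 ± 0.49), Hsp67Ba and Hsp83.

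Cell cycle and replication genes leaned the other way. Of 53 tested members 13 had a positive estimate, with a median of -0.22, and the medians were -0.24 in libraries OSS_146 and -0.28 in libraries OSS_147. Its most abundant members lay near that median. The sliding clamp PCNA, listed as mus209, had 239 and 252 CPM in the double knockdown and 244 and 326 CPM with siPIWI (-0.21 ± 0.41), and its groups overlapped. The helicase subunit Mcm3 had 197 and 293 CPM in the double knockdown and 282 and 288 CPM with siPIWI (-0.22 ± 0.43), again with overlap. Genes with lower estimates than the median, chosen after their values were seen, included the following. The kinase gene cdc2, which drives entry into mitosis, had 49.3 and 28.9 CPM in the double knockdown and 50.7 and 88.0 CPM with siPIWI (-0.77 ± 0.43). DNApol-alpha180, the large subunit of the polymerase that starts replication, had 57.2 and 42.2 CPM in the double knockdown and 92.2 and 63.1 CPM with siPIWI (-0.64 ± 0.41). The checkpoint gene BubR1 had 79.8 and 82.0 CPM in the double knockdown and 121 and 116 CPM with siPIWI (-0.55 ± 0.41). The double-knockdown libraries lay below the siPIWI libraries in 12 members, where 10.5% of all genes tested did so. The median of the list was -0.23 for siPAF1 minus siGFP and -0.28 for the double knockdown minus siPIWI in the pellet. None of the 53 passed at an adjusted or an unadjusted edgeR p under 0.05, and the median was 0.01 without siPIWI library OSS_146.

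Proteasome, cytoplasmic ribosomal and respiratory chain genes mostly had positive estimates, and mitochondrial ribosomal protein genes did not. Of 29 tested proteasome genes 24 had a positive estimate (median 0.18, with 0.22 in libraries OSS_146 and 0.24 in libraries OSS_147). In 13 of them the double-knockdown libraries lay above the siPIWI libraries, against 12% of all genes tested. Prosalpha7, a subunit of the core particle and the most abundant member, had 2484 and 3666 CPM in the double knockdown and 2258 and 2315 CPM with siPIWI (0.43 ± 0.47). Prosbeta5, a catalytic subunit, stood at 0.12 ± 0.51 with overlapping groups. Rpn12, a subunit of the regulatory particle, had 289 and 341 CPM in the double knockdown and 200.1 and 223 CPM with siPIWI (0.57 ± 0.42). Of 80 tested cytoplasmic ribosomal protein genes 68 had a positive estimate, with a median of 0.23, while the median for siPAF1 minus siGFP was -0.19. The first median was -0.17 without double-knockdown library OSS_147 and -0.07 without siPIWI library OSS_146, so its sign depended on the libraries. Of 26 respiratory chain genes 19 were positive (median 0.24, with 0.20 in libraries OSS_146 and 0.17 in libraries OSS_147). Of 71 mitochondrial ribosomal protein genes 36 were positive, and the median of 0.00 divided into 0.20 in libraries OSS_146 and -0.12 in libraries OSS_147. Level itself moved with the estimate: among the 188 genes over 500 CPM 81.9% were positive, with a median of 0.26, while among the 2273 genes under 20 CPM 39.5% were, with a median of -0.15. The part of level in the list medians was not tested.

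**Figure D4:**
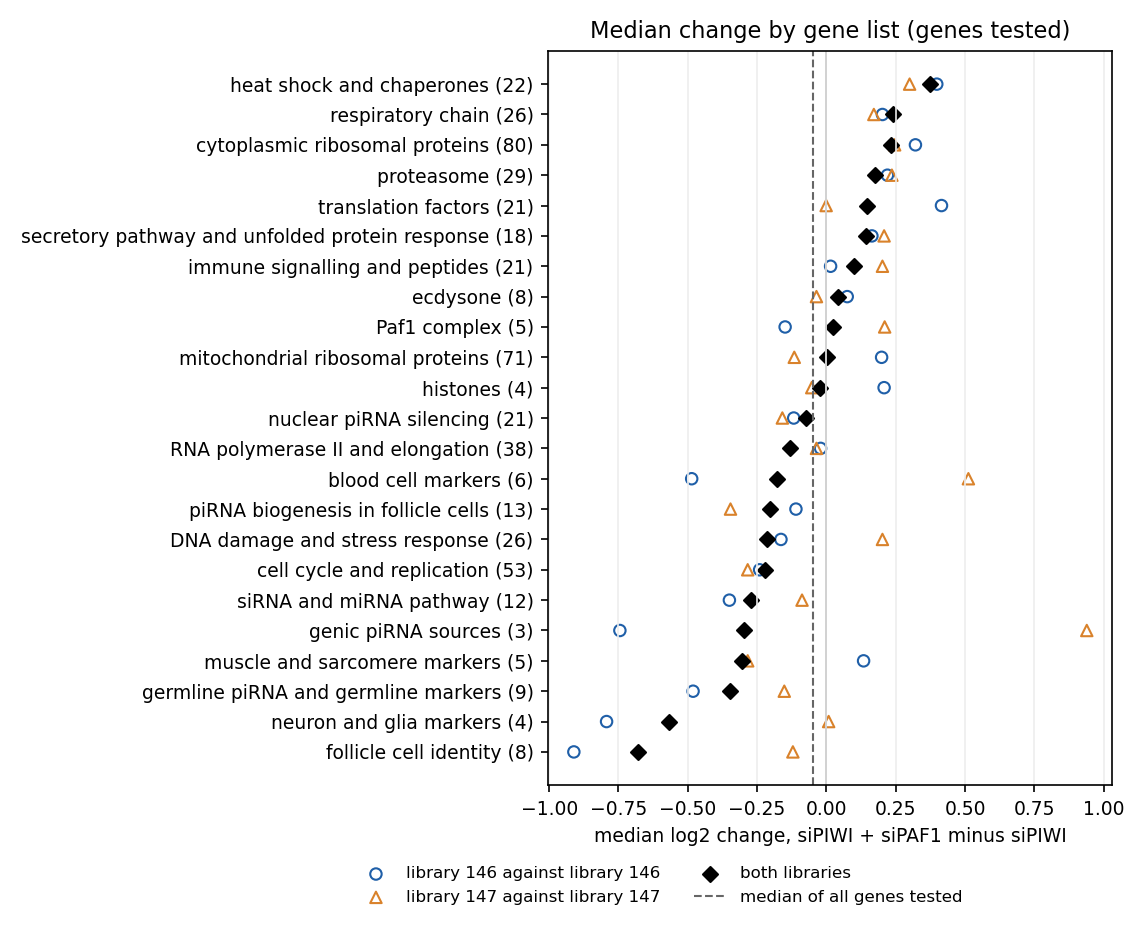
Median log2 change of the double knockdown minus siPIWI for the tested members of each list, with the number tested in brackets. Diamonds use both libraries, circles libraries OSS_146 and triangles libraries OSS_147, and the dashed line is the median of all genes tested at -0.05; circles and triangles lie close for the heat shock and cell cycle lists and far apart for blood cell markers and genic piRNA sources.

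Genes of the silencing pathways showed no call. In the nuclear piRNA silencing list 8 of 21 members were positive, with a median of -0.07, and with -0.12 in libraries OSS_146 and -0.16 in libraries OSS_147. Maelstrom (mael), which acts with Piwi in nuclear silencing, had 40.9 and 26.5 CPM in the double knockdown and 58.5 and 76.3 CPM with siPIWI (-0.95 ± 0.43, edgeR adjusted p = 0.999). The zinc finger gene sov, listed as CG14438, had 31.3 and 15.7 CPM in the double knockdown and 79.2 and 22.01 CPM with siPIWI (-1.10 ± 0.52), with its highest level again in siPIWI library OSS_146. The gene of heterochromatin protein HP1 had 411 and 589 CPM in the double knockdown and 206 and 833 CPM with siPIWI, and its groups overlapped (-0.05 ± 0.52). In the list of piRNA biogenesis in follicle cells 3 of 13 members were positive (median -0.20, with -0.11 in libraries OSS_146 and -0.35 in libraries OSS_147), and the helicase gene armi stood at 371 and 181 CPM in the double knockdown and at 368 and 208 CPM with siPIWI (-0.06 ± 0.45). In the list of siRNA and miRNA genes 2 of 12 members were positive (median -0.27, with -0.35 in libraries OSS_146 and -0.09 in libraries OSS_147). AGO2, the Argonaute that uses siRNAs, had 287 and 182 CPM in the double knockdown and 253 and 172 CPM with siPIWI (0.14 ± 0.43). The list of RNA polymerase II and elongation factors had 16 of 38 positive and a median of -0.13, with -0.02 in libraries OSS_146 and -0.04 in libraries OSS_147. Its 2 most abundant members, both polymerase subunits, had positive estimates. RpII140 had 137 and 148 CPM in the double knockdown and 157 and 93.9 CPM with siPIWI (0.18 ± 0.42), with overlap. RpII18 had 123 and 165 CPM in the double knockdown and 118 and 113 CPM with siPIWI (0.31 ± 0.42), without overlap. RpII215, the largest subunit of the polymerase, had the lowest estimate of the list (-1.05 ± 0.53). It had 47.6 and 16.9 CPM in the double knockdown and 105 and 30.8 CPM with siPIWI, and its groups overlapped.

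Genes of follicle cell identity had the lowest median of the lists, -0.68, with 1 of 8 tested members positive. It rested on libraries OSS_146, where the median was -0.91, against -0.12 in libraries OSS_147. The median was 0.74 without siPIWI library OSS_146 and 0.10 without libraries OSS_146 of both groups, so its sign depended on that library. The transcription factor gene tj had 135 and 105 CPM in the double knockdown and 255 and 66 CPM with siPIWI (-0.43 ± 0.51). The gene dec-1, the 1 member with a positive estimate, had 241 and 98.8 CPM in the double knockdown and 228 and 89.5 CPM with siPIWI (0.09 ± 0.48). The Hedgehog receptor gene ptc, the member with the lowest estimate, had 31.3 and 20.5 CPM in the double knockdown and 101 and 23.5 CPM with siPIWI (-1.27 ± 0.52). In tj, dec-1 and ptc the groups overlapped, and in tj and ptc siPIWI library OSS_146 was the highest. Stress genes had no common direction, with 10 of 26 tested members of the DNA damage and stress list positive. Jra belonged to it, as did GstD1, a glutathione transferase, with 1902 and 3676 CPM in the double knockdown and 1636 and 1488 CPM with siPIWI (0.84 ± 0.49). In the secretory pathway and unfolded protein response list 12 of 18 were positive (median 0.14, with 0.16 in libraries OSS_146 and 0.21 in libraries OSS_147). Its transcription factor gene Xbp1 had 1466 and 2013 CPM in the double knockdown and 916 and 1367 CPM with siPIWI (0.61 ± 0.46). Of 21 translation factor genes 13 were positive (median 0.15, with 0.42 in libraries OSS_146 and -0.00 in libraries OSS_147).

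The 10 genes listed because siPIWI raised them in the pellet of these samples were scarce in the cytoplasm, and 0 of them passed the count filter. The list was chosen on the study's pellet libraries, so it is not independent evidence of a direction. Their summed level was 15.04 and 18.1 CPM in the double knockdown and 131 and 26.4 CPM with siPIWI, and it was 6.32 and 2.98 CPM with siPAF1 and 4.10 and 2.60 CPM with siGFP. The 4 libraries with siRNA against piwi were thus above the 4 without it, and siPIWI library OSS_146 stood apart from the other 3. That library owed its sum mainly to Pde6, a phosphodiesterase of cyclic nucleotides. Pde6 had 2 and 2 counts in the double knockdown, against 112 and 6 counts with siPIWI, 6 and 0 counts with siPAF1 and 1 and 2 counts with siGFP. It passed the test when the fit held all 16 libraries (-5.07 ± 0.86, edgeR adjusted p = 0.0176) or used no count filter (-4.92 ± 0.78, edgeR adjusted p = 2.45e-06). Without siPIWI library OSS_146 its cytoplasmic counts, at most 6 in a library, were under the count filter, so Pde6 was not tested there. The cytochrome P450 gene Cyp28a5 had 15 and 5 counts in the double knockdown and 24 and 6 counts with siPIWI, against 1 and 0 counts with siPAF1 and 1 and 0 counts with siGFP. The giant matrix protein gene dp had 3 and 2 counts in the double knockdown and 15 and 0 counts with siPIWI. By CPM, within libraries OSS_146 all 10 genes were lower in the double knockdown than with siPIWI, and within libraries OSS_147 6 of them were. Several of these directions rest on very few counts. In libraries OSS_147 gogo, among the 6, had 2 counts in each group. There nimC2 and CG15572 had 0 counts in both, and dp and Unc-89 were higher. In libraries OSS_146 CG15572 had 0 counts in the double knockdown and 1 with siPIWI.

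Coding length and enrichment in the pellet moved with the change in libraries OSS_146 more than in libraries OSS_147. In libraries OSS_146 the median change was 0.33 for the 589 genes with a coding length up to 500 bases and -0.69 for the 539 genes over 4000 bases. In libraries OSS_147 the same classes had medians of -0.17 and -0.04. Genes were also classed by the log2 of their level in NUN over the cytoplasm with siGFP. In libraries OSS_146 the median was 0.17 for the 2328 genes under -1 and -0.54 for the 632 genes over 3, against 0.04 and -0.04 in libraries OSS_147. Across the 5714 genes log2 coding length and the change had Pearson's r = -0.47 and Spearman's rho = -0.48 in libraries OSS_146, against r = 0.07 and rho = 0.06 in libraries OSS_147. Of the 96 genes at an unadjusted edgeR p under 0.05 on the lower side 38 were over 4000 bases, and of the 53 on the higher side 0 were. Among all 5714 genes tested 539 were over 4000 bases. The share of pellet-enriched RNA was 2.35% in double-knockdown library OSS_146 and 3.72% in siPIWI library OSS_146, and its part in these trends was not tested.

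**Figure D5:**
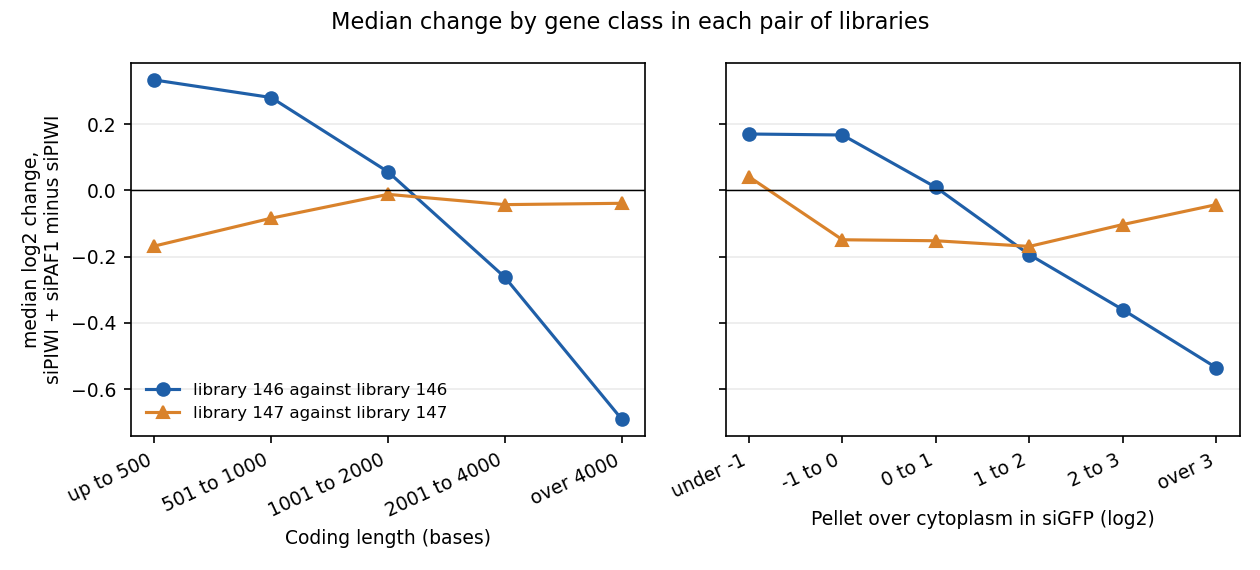
Median log2 change of the double knockdown minus siPIWI by class of coding length (left) and by class of log2 level in NUN over cytoplasm with siGFP (right). The line of libraries OSS_146 drops to -0.69 and -0.54 in the last class, and the line of libraries OSS_147 stays between -0.17 and 0.04.

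How many genes were called depended on siPIWI library OSS_147. For comparison, of the 5714 genes tested in the fit of the 8 cytoplasmic libraries 632 were pellet-enriched. The median coding length of all genes tested there was 1393.5 bases. The count filter depends on the size of the smallest group, so leaving out a library changed the set of genes tested. Both values are therefore for another gene set than the calls below. Pde6, which did not pass the filter in that fit, was tested without siPIWI library OSS_147. Without it siPIWI was represented by library OSS_146 alone, and edgeR called 52 genes, 42 lower and 10 higher. The 42 had a median coding length of 7710 bases, and 26 of them were among the pellet-enriched genes. The 10 had a median coding length of 520.5 bases, and 0 of them were pellet-enriched. The 52 included atms, and 6 of the 19 genes named above, unc-13, Msp-300, sls, Su(var)2-HP2, Muc14A and CG9689. Without siPIWI library OSS_146, 3 genes were called, atms, CG18094 and CG32625, all lower. With the share of pellet-enriched counts as a covariate, and with those genes left out, atms remained the 1 call (-3.15, edgeR adjusted p = 5.01e-05, and -3.19, edgeR adjusted p = 0.000488).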

How the data were processed

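Per the labels, total RNA of cytoplasm lysates and NUN pellets was made into strand-specific libraries, and 8 barcoded libraries shared each sequencing run. Bowtie is the aligner that the submitters' processing notes list, with no version stated. The genome build is not given in the sources used here. The deposited tables hold raw counts of uniquely aligned reads per CDS, untranslated window and locus of 24995 transcript models, on each strand, and counts of all alignments. The authors' RPM values were checked and not used. From the deposited counts the unique own-strand CDS count of the model with the longest coding length stood for each of 14229 genes. The CDS is the same in all files, while the authors' windows differ between libraries. Current symbols came from a later annotation, used for names only, and 794 of 802 list names matched.

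Tests used edgeR 4.0.16 in R 4.3.3 (filterByExpr, TMM, the quasi-likelihood F test with robust fitting, a coefficient for each group) on the 8 cytoplasmic libraries, or on all 16 to compare with the pellet, with a threshold of 0.05. The biological coefficient of variation was 32.0%, and TMM factors ran from 0.649 to 1.37. Changes within a library number are differences of log2 CPM with a prior of 0.5 counts and have no test. Depth sets the precision: reads carry no molecular identifiers, and a level of a few counts covers counting error only. The script was tested on simulated data. Alternatives were DESeq2 1.42.0, other scalings, filters, counting rules, a replicate block, a pellet-share covariate and leaving out libraries.

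The text names, by rule, both genes targeted by siRNA, genes past the threshold, up to 10 per direction with the smallest unadjusted p among genes with at least 20 mean counts and no overlap between groups, and, from the lists described at most length, the 2 most abundant members. Most other list members were named after their values were seen. The members and lists were chosen with earlier results of these data known.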

Additional observations from a re-analysis of the deposited data

How the results depend on the processing

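The comparison of the double knockdown with siPIWI gave 1 call with DESeq2 size factors, the DESeq2 test, library sizes without the 20 most abundant genes, both strands, all alignments, the pellet share as a covariate and the pellet-enriched genes left out. It gave 2 calls with no count filter and 2 with all 16 libraries (atms and Pde6), 2 over the whole locus, 0 with at least 10 counts in every library, which leaves atms out (111 genes at an unadjusted edgeR p under 0.05), and 0 in a fit of the 4 libraries alone (58 genes unadjusted). Leaving out each library in turn gave 0 to 52 calls. Chosen after seeing the data, leaving out libraries OSS_146 from both groups gave 1 call and leaving out libraries OSS_147 gave 5 (atms, Muc14A, Pde6, CG13185 and unc-13). The cause of these differences was not tested. The difference from the siPAF1 minus siGFP change gave 0 calls under all alternatives except that leaving out siPIWI library OSS_147 gave 2 (CG16974 and Pde6), a range of 0 to 2, and the difference from the pellet gave 0 under each.

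Over the whole locus the second call was CG16953 (chromosome 3R, 16407492 to 16411536), at 2.15 ± 0.31 (edgeR adjusted p = 0.0228). Its locus held 1018 and 433 own-strand counts in the double knockdown and 154 and 78 with siPIWI, but its CDS held 61 and 12 counts in the double knockdown and 48 and 11 with siPIWI. The authors' window ran 1300 to 1400 bases into the neighbour Sep2, on the same strand, in the 4 cytoplasmic libraries with siRNA against the Paf1 gene and 0 bases in the other 4. The counts of that locus are therefore not over the same bases.

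A replicate block built from the library numbers gave 1 call again, atms at -3.20 (edgeR adjusted p = 3.07e-07), and 0 in the other tests. The number was not taken as a pairing, since the labels do not say what it marks. The deviations of same-numbered libraries correlated at r = 0.55 between the 2 compared groups. Between the other pairs of cytoplasmic groups r ran from -0.15 to 0.23. Over 18 alternatives atms stayed negative, from -3.28 to -2.79 (edgeR adjusted p = 3.07e-07 to 0.243). The heat shock median stayed positive over 19 alternatives (0.08 to 0.53), the cell cycle median ran from -0.46 to 0.01, and the follicle cell identity median from -1.51 to 0.74. The 19 genes named beside atms had been chosen for no overlap between the groups in these same libraries. Their sign could therefore hardly change, and that they kept it under every alternative that measured them is no evidence of a direction. The estimate of piwi ran from -0.78 to 0.72. Low counts limit most genes: with at least 10 counts in every library 3130 genes could be tested.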

Other observations

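Genes of chromosome 4, the small chromosome of the fly that is largely heterochromatic, were mostly lower in the double knockdown. The chromosome was singled out after the medians of all chromosomes had been seen, so its values are a description with no test. Of its 48 tested genes 8 had a positive estimate (16.7%), against 46.5% of the 5666 tested genes elsewhere. The median change was -0.49 on chromosome 4, with -0.55 in libraries OSS_146 and -0.41 in libraries OSS_147, against -0.05 elsewhere. The double-knockdown libraries lay below the siPIWI libraries in 16 of the 48 genes (33.3%, against 10.3% of the genes elsewhere) and above them in 0, against 688 genes elsewhere. The libraries that share no sample with this comparison gave a median of -0.42 for siPAF1 minus siGFP, and again 8 of 48 were positive.

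Chromosome 4 genes are longer than others, with a median coding length of 2500.5 against 1383 bases. Among genes up to 2000 bases the median was -0.48 for 20 genes of chromosome 4 and 0.05 for 3859 others. Among longer genes it was -0.54 for 28 and -0.28 for 1807. The double-knockdown libraries lay below the siPIWI libraries in 2 of the 20 shorter genes, against 9.59% of shorter genes elsewhere. They did so in 14 of the 28 longer genes, against 11.79% elsewhere. The excess of genes below without overlap was therefore seen among the longer genes only. For siPAF1 minus siGFP the median of the shorter genes was -0.193, against 0.042 elsewhere. That of the longer genes was -0.505, against 0.047 elsewhere. These longer genes were not matched for length, with median coding lengths of 4207.5 bases on chromosome 4 and 3093 bases elsewhere. All 539 tested genes over 4000 bases had a median change of -0.49, and the part of length in the chromosome 4 values was not tested. In the pellet the median of chromosome 4 was 0.01. Over 19 alternatives the median stayed negative, from -0.62 to -0.20. Among its members plexA, a semaphorin receptor, differed by -1.27 (-1.23 in libraries OSS_146 and -1.40 in libraries OSS_147). The transcription factor gene of Hedgehog signalling, ci, differed by -1.04 (-1.30 in libraries OSS_146 and -0.81 in libraries OSS_147), while RpS3A, a ribosomal protein gene, stood at 0.30. None of the 48 passed the edgeR test, and 5 had an unadjusted edgeR p under 0.05, all lower, against 1.68% of all genes tested with such a p on that side.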
